A study of Mus musculus with 12 samples.

Results

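The genes described here are 28 genes of cholesterol and fatty acid synthesis and their regulators. They were taken from the deposited table by gene symbol, and each of the 28 names was found among its 46731 genes. All 28 had an FPKM (fragments mapped to a gene, scaled to its length and to the size of the library) of at least 1 in at least 3 libraries, the limit that 12368 genes of the table passed.

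Cells build cholesterol from acetyl-CoA. The mevalonate steps give the isoprenoid farnesyl diphosphate, the next enzymes join this into squalene and close it to lanosterol, and a last series of enzymes turns lanosterol into cholesterol. Fatty acid synthesis starts from the same acetyl-CoA. Both are governed by the SREBP transcription factors, which are escorted by Scap, held in the endoplasmic reticulum by the Insig proteins when sterols are plentiful, and released to the nucleus when sterols fall. Cartilage cells use sterols for membranes and for the modification of hedgehog ligands.

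RNA was sequenced from ATDC5, a chondrogenic line derived from a mouse teratocarcinoma. All cells carried a stably integrated lentiviral hairpin cassette with puromycin selection, either the control hairpin (shRNA-NC, labelled wildtype) or a hairpin against *Ddx5*, which codes for an RNA helicase (shRNA-*Ddx5*, labelled DDX5 knockdown). Each was kept for 6 h without stimulation or with IL-1β at 5 ng/ml and TNF-α at 25 ng/ml, which gave 4 groups of 3 libraries. A single hairpin was named, so an effect of *Ddx5* and an effect of that hairpin or cell pool cannot be told apart. *Ddx5* was at 32.3% of its control level in medium and 32.1% with cytokines. Its log2 difference was -1.63 in both (standard error 0.10, limma adjusted p = 9.5e-07 and 9.1e-07).

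The libraries held 14119199 to 19276520 fragments on genes, and each value of the 28 genes rested on 18 to 34452 fragments. In 3 libraries the dependence of the level on the GC content of transcripts stood apart from the other libraries of the group by more than 0.2 log2 units per 10% GC. These were shRNA-NC replicate 3 and shRNA-*Ddx5* replicate 1 in medium and shRNA-NC replicate 1 with cytokines, so counts are also given with that trend removed and without these libraries. Of 13 chondrogenic markers 5 passed the limit on low values. *Acan* and *Comp*, which mark mature cartilage cells, were at or below 0.333 FPKM in every library. The summed FPKM of the 13 markers was 41.7 to 48.2 in shRNA-NC and 32.4 to 35.3 in shRNA-*Ddx5* cells in medium, and 14.7 to 21.3 and 11.9 to 12.1 with cytokines. This total was carried by *Sox9* and *Col2a1* in shRNA-NC cells, and by *Sox9* followed by *Col11a1* in shRNA-*Ddx5* cells. Single markers differed: *Col2a1* fell and *Col11a1* rose with knockdown in both media (-1.98 and 1.65 with cytokines, limma adjusted p = 5.5e-05 and 1.8e-06). *Col2a1* was below 1 FPKM in every shRNA-*Ddx5* library and *Col11a1* in every shRNA-NC library. Each passed the limit on low values only through the line in which it was higher, so these calls are not independent of it. The summed FPKM of 9 adipocyte markers was 0.641 to 2.32 and 2.25 to 2.59 in medium (shRNA-NC and shRNA-*Ddx5*) and 2.51 to 3.80 and 2.52 to 3.03 with cytokines. Of these, *Fabp4* was called higher with knockdown in both media. It was at 0 in every shRNA-NC library in medium and at 1.02 to 1.31 FPKM with knockdown, and with cytokines at 0.0597 to 0.738 and 1.27 to 2.03. *Cebpa* was lower with knockdown in cytokines (-1.09, adjusted p = 0.00258). *Fabp4* was below 1 FPKM in every shRNA-NC library, and *Cebpa* was below 1 FPKM in every shRNA-*Ddx5* library. Both passed the limit on low values only through the line in which they were higher, so their calls are not independent of it. The part of these markers in the results below was not tested. The summed FPKM of 4 hepatocyte markers was at most 0.323. In such bulk samples, fewer cells of a type and less RNA per cell cannot be told apart.

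Promoters of 6 genes are shown because each holds CCAAT, the motif bound by NF-Y, a known partner of SREBP, and because 4 of the genes were higher and 2 lower in knockdown cells in at least one medium. RefSeq promoter entries on GRCm38.p6 were found for 22 of the 28 genes. *Fdps*, *Fdft1*, *Sqle*, *Stard4*, *Scd1* and *Scd2* had no entry. Each sequence is the 250 bases before the annotated start site, 5′ to 3′ on the strand of the gene. Capitals mark CCAAT on either strand, and in *Hmgcs1* also the sterol regulatory element, the motif bound by SREBP.
Hmgcs1, chr13:119690101-119690350, plus strand: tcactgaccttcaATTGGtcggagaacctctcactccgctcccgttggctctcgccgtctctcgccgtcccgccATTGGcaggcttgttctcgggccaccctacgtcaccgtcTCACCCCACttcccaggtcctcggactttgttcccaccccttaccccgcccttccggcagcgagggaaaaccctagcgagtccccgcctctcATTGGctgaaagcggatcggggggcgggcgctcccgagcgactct
Mvk, chr5:114444019-114444268, plus strand: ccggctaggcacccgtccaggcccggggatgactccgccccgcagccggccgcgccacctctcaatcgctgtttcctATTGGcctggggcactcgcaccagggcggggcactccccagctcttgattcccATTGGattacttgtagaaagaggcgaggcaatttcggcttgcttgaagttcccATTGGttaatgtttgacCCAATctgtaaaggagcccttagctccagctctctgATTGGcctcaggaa
Nsdhl, chrX:72918271-72918520, plus strand: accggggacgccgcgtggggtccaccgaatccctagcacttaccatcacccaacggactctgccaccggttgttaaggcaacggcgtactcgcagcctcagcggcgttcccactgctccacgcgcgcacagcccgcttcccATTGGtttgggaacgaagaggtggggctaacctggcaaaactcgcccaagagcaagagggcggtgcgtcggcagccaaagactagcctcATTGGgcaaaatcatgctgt
Insig1, chr5:28071162-28071411, plus strand: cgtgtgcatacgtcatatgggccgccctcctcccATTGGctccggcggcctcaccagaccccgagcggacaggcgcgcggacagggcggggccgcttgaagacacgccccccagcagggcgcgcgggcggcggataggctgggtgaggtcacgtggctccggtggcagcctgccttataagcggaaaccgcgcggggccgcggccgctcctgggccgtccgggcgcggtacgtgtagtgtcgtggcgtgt
Idi1, chr13:8885356-8885605, plus strand: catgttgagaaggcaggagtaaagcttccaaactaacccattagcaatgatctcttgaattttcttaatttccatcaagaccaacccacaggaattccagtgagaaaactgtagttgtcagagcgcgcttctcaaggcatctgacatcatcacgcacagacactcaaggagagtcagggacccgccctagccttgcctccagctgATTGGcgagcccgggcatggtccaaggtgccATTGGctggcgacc
Cyp51, chr5:4104698-4104947, minus strand: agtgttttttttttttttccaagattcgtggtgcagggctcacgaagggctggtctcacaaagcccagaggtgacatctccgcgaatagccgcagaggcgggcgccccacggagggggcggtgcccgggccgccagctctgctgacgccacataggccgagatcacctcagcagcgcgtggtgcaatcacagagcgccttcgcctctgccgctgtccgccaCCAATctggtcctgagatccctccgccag

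CCAAT was present in the promoters of 19 of the 22 genes, or 86.4%. The share was 41.5% of the 8927 tested genes with an entry and 37.5% of all 27025 genes with one. The GC box GGGCGG was also found in 19, or 86.4%, against 65.8% of tested genes and 35.4% of all genes. The E-box CACGTG was found in 5, or 22.7%, against 10.1% and 6.86%. The sterol regulatory element TCACNCCAC was present in full in *Hmgcs1* alone, starting 137 bases before the start site. This is 4.55% of the genes, against 1.13% of tested genes and 1.22% of all genes. With 1 mismatch allowed it was found in 10 genes, or 45.5%, against 25.1% and 23%. A pattern of 4 runs of at least 3 G with loops of 1 to 7 bases, a sequence able to form a G-quadruplex, was found in 6 genes, or 27.3%, against 28% and 18.5%. Matches were counted on both strands, and a gene with several start sites counted if the window before any of them held the motif. The exact element is also among those with 1 mismatch, and CCAAT can overlap its own reverse complement. *Mvk* held 5 CCAAT motifs, the most of any window here. *Idi1* and *Cyp51*, which were lower in knockdown cells in medium, held 2 and 1. *Nsdhl* and *Insig1*, which were higher in knockdown cells with cytokines, also held 2 and 1. A match is a description of these letters and not a binding site.

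**Figure D1:**
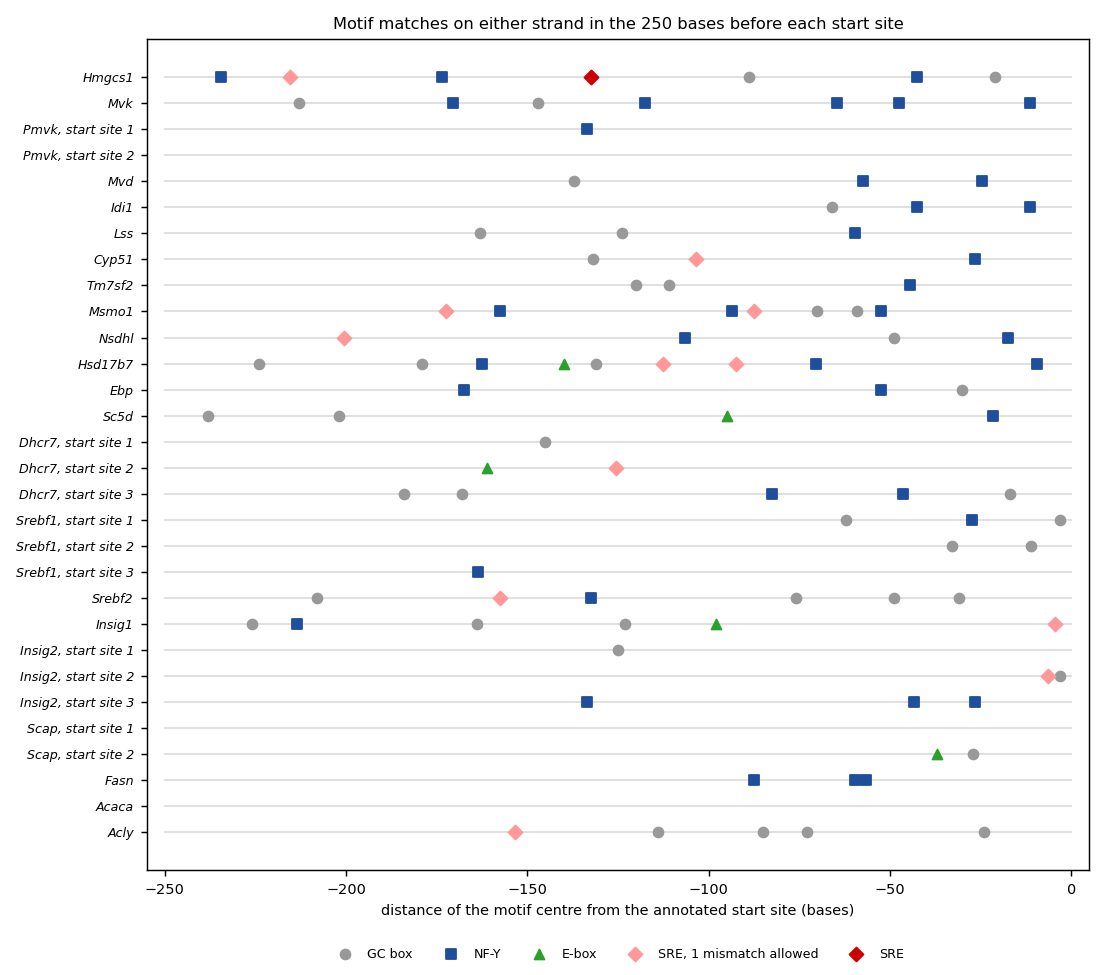
Motif matches in the 250 bases before the start site of the 22 genes with a promoter entry, 1 line per start site, with the distance from the start site in bases on the x axis and 1 mark per match on either strand. CCAAT marks stand on the lines of 19 genes, and the single full sterol regulatory element is in *Hmgcs1*.

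The first question was what the knockdown of *Ddx5* did to these genes in medium. Of the 28 genes, 12 were higher and 2 lower in shRNA-*Ddx5* than in shRNA-NC cells (limma, adjusted p under 0.05). Among all tested genes 25.3% were called higher and 21.7% lower, so that the share of genes called, 14 of 28, was close to the background of 47.0%, while the split between the directions was uneven. The median log2 difference of the 28 genes was 0.24, against 0.03 for all tested genes. It was 0.04 after quantile normalization and 0.14 after rescaling to the sum of fragments, which called 11 and 9 genes higher. With the GC trend removed 16 were higher and 3 lower, against 28.5% and 25.8% of all tested genes, and without the 3 libraries 14 and 4, against 29.1% and 25.8%. Of all called genes, 53.8% were higher, and 42.4% after rescaling to the sum.

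With IL-1β and TNF-α in the medium, 22 of the 28 genes were higher in shRNA-*Ddx5* than in shRNA-NC cells and 0 lower by limma. The background was 23.5% higher and 22.1% lower, or 45.6% in all. In the lower direction 0 genes had an unadjusted p under 0.05, 0 were called by voom, and 1, *Cyp51*, after quantile normalization. The median log2 difference was 0.54, against 0.01 for all tested genes, and 0.44 after quantile normalization. The 3 knockdown libraries lay above the 3 control libraries without overlap in 24 genes and below them in 1, where the background was 31.7% and 29.9%. In medium these counts were 14 and 2, where it was 28.7% and 24.8%. With the GC trend removed 25 genes were called higher, where the background was 26.7%, and 24 without the 3 libraries, where it was 28.8%.

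**Figure D2:**
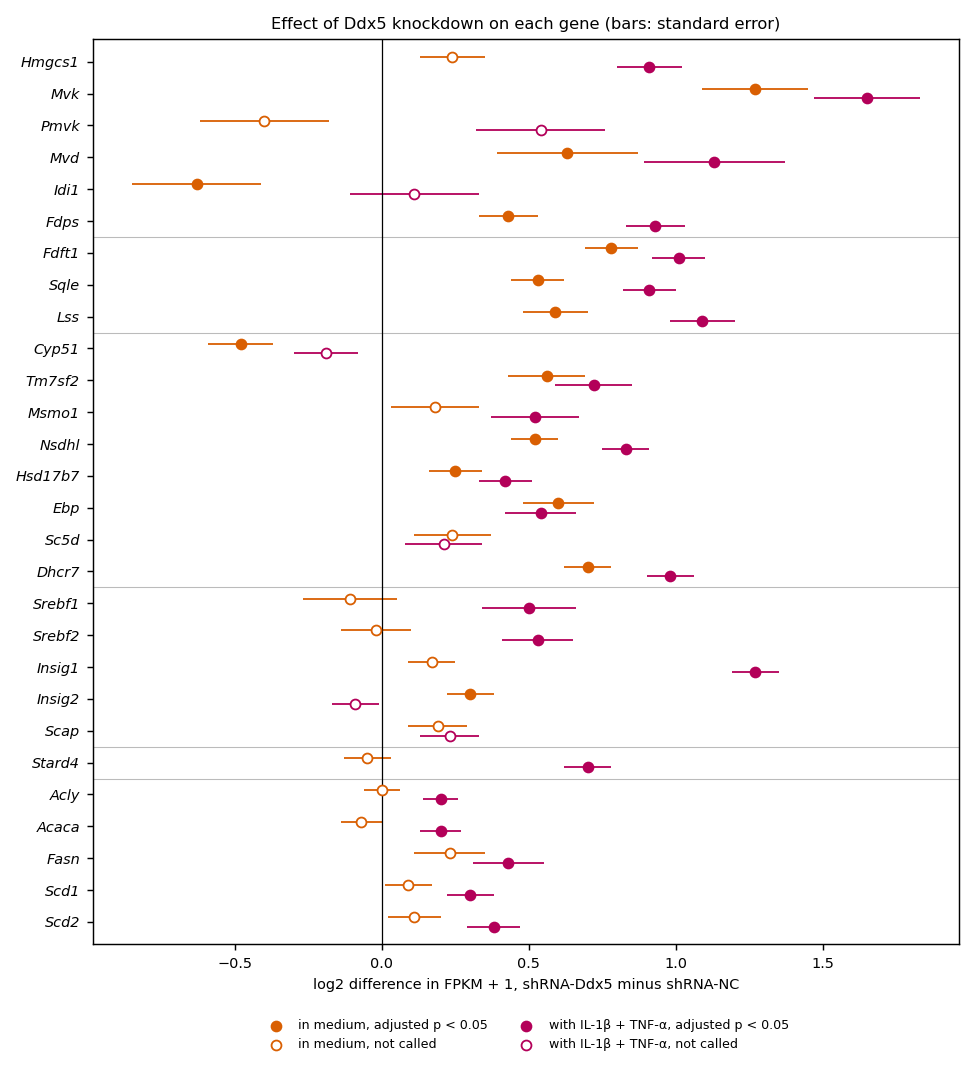
Log2 difference in FPKM + 1 between shRNA-*Ddx5* and shRNA-NC cells for each of the 28 genes, in medium and with cytokines, with standard errors as bars and filled points for adjusted p under 0.05. With cytokines 22 points are filled, all to the right of 0, and in medium 12 to the right and 2 to the left.

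The cytokines alone were compared within each line. In shRNA-NC cells 13 of the 28 genes were lower with IL-1β and TNF-α and 0 higher by limma, against a background of 15.2% lower and 18.6% higher. In the higher direction 0 genes had an unadjusted p under 0.05, and voom also called 0. The median log2 difference was -0.31, against 0.02 for all tested genes. Among the shRNA-*Ddx5* libraries 5 genes were higher and 3 lower, against 13.5% and 13.5%, or 27.0% in all, with a median of 0.07 that became -0.04 after quantile normalization. Leaving out shRNA-*Ddx5* replicate 2 or 3 in medium left 1 of these 5 higher calls. So did leaving out any 1 of the 3 shRNA-*Ddx5* libraries with cytokines. With the GC trend removed 17 genes were lower in shRNA-NC cells, where the background was 20.1%, and 6 were higher and 4 lower in shRNA-*Ddx5* cells, where it was 17.4% and 17.0%. Without the 3 libraries these counts were 15, 7 and 5, against 16.9%, 25.3% and 23.5%, so that the last 2 were at or below the background. Of all called genes 55.1% were higher in shRNA-NC cells, and 43.4% after quantile normalization and 42.2% after rescaling to the sum. In shRNA-*Ddx5* cells the share was 50.0%, and 39.0% after quantile normalization.

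An interaction term tested if the knockdown effect was the same with and without cytokines. It passed for 4 of the 28 genes, each with the larger effect in cytokines. The background was 3.46% in this direction and 4.75% in the other, or 8.21% in all. These 4 genes were *Hmgcs1*, *Fdps*, *Insig1* and *Stard4*. With the GC trend removed 11 genes passed in this direction and 1, *Insig2*, in the other, against 6.63% and 7.99%. Without the 3 libraries 12 and 1 passed, against 7.95% and 9.50%. Leaving out shRNA-NC replicate 3 in medium alone gave 7 and 1, and leaving out shRNA-*Ddx5* replicate 1 or 3 with cytokines gave 2. The knockdown and cytokine comparisons share libraries, since the shRNA-NC cells with cytokines are the control of one and the treated group of the other, so their values stand side by side below and were not correlated.

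**Figure D3:**
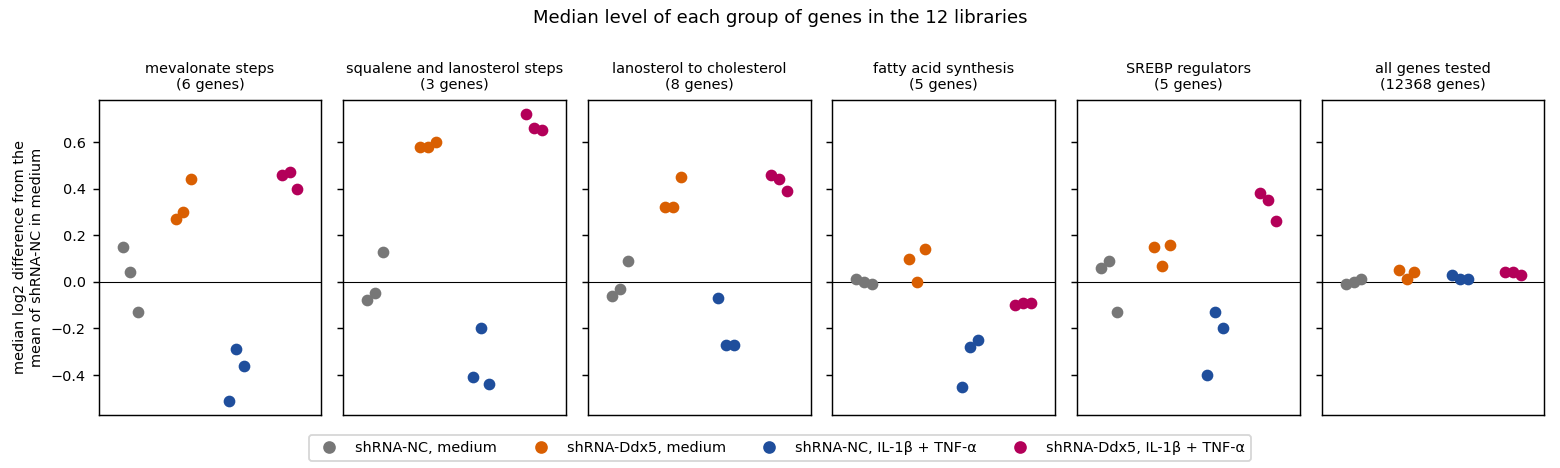
Median log2 difference of each group of genes from the mean of the shRNA-NC libraries in medium, 1 point per library and 1 color per group, with all 12368 tested genes in the last panel. The 3 panels of the steps to cholesterol place shRNA-*Ddx5* libraries above 0 in both media and shRNA-NC libraries with cytokines below 0, while all tested genes stay within 0.05 of 0.

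Of the 6 genes of the mevalonate steps, 3 were higher and 1 lower with knockdown in medium, and 4 were higher with knockdown in cytokines. The share called was 66.7% in both, against 47.0% and 45.6% of all tested genes. *Mvk*, mevalonate kinase (gene 17855, GRCm39 chromosome 5, 114582324 to 114598652, plus strand), had the largest knockdown difference of the 28 genes in both media. Its FPKM in medium was 28.3, 23.5 and 17.3 in shRNA-NC and 62.8, 52.6 and 52.4 in shRNA-*Ddx5* cells. With cytokines it was 12.4, 19.6 and 18.0, and 54.9, 55.7 and 50.3. All 6 knockdown libraries exceeded all 6 control libraries. The log2 difference was 1.27 (standard error 0.18, adjusted p = 2.3e-04) in medium and 1.65 (standard error 0.18, adjusted p = 3.5e-05) with cytokines.

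*Hmgcs1*, the HMG-CoA synthase that feeds the pathway (gene 208715, chromosome 13, 120151887 to 120169796, plus strand), was at 68.3, 71.0 and 77.5 FPKM in shRNA-NC cells in medium and at 49.5, 45.0 and 50.0 with cytokines. In shRNA-*Ddx5* cells it was at 71.8, 91.7 and 95.4 in medium and at 97.8, 83.5 and 94.1 with cytokines. The groups overlapped in medium and were separate with cytokines. The cytokine difference in shRNA-NC cells was -0.57 (standard error 0.11, adjusted p = 0.00238), and the knockdown difference with cytokines was 0.91 (adjusted p = 6.8e-05). In medium the knockdown difference was 0.24 (adjusted p = 0.0941), and 0.42 (adjusted p = 0.00339) without the 3 libraries.

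*Fdps*, which makes farnesyl diphosphate (gene 110196, chromosome 3, 89000895 to 89009274, minus strand), rose from 94.6 ± 9.08 to 128 ± 13.2 FPKM (SD, n = 3) with knockdown in medium. The difference was 0.43 (adjusted p = 0.00396), and 0.16 (adjusted p = 0.112) after quantile normalization. With cytokines the means were 70.0 ± 2.50 and 135 ± 8.55, a difference of 0.93 (adjusted p = 2.5e-05). The small RNA gene *Gm22935* lies within it on the same strand. *Mvd*, mevalonate diphosphate decarboxylase, was at 9.05 ± 3.42 and 14.0 ± 2.16 in medium and at 10.3 ± 2.65 and 23.3 ± 0.825 with cytokines. Its difference of 1.13 with cytokines (adjusted p = 0.00245) came with groups that did not overlap. In medium the groups overlapped, and the call (0.63, adjusted p = 0.0478) was lost in 14 of 23 alternatives, where the difference ranged from 0.23 to 0.86 and the adjusted p from 0.00555 to 0.175.

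*Idi1*, the isomerase that makes the reactive isoprene unit (gene 319554, chromosome 13, 8935642 to 8942432, plus strand), ran the other way in medium. Its FPKM was 17.3, 20.5 and 23.4 in shRNA-NC and 8.36, 15.9 and 15.2 in shRNA-*Ddx5* cells. The lowest value came from shRNA-*Ddx5* replicate 1. The difference was -0.63 (standard error 0.22, adjusted p = 0.0339). It was -0.36 without that library and -0.26 without the 3 libraries, and over 23 alternatives the adjusted p ranged from 0.0182 to 0.152. *Pmvk*, phosphomevalonate kinase, was not called between the lines in either medium, with differences of -0.40 and 0.54. Without the 3 libraries it was called lower in medium (-0.73, adjusted p = 9.4e-04), and with the GC trend removed it passed in both (-0.44 and 0.47, adjusted p = 0.0331 and 0.0258). It was higher with cytokines in shRNA-*Ddx5* cells, from 6.44 ± 1.39 to 11.1 ± 1.02 FPKM (difference 0.72, adjusted p = 0.0291), a call that 6 of 23 alternatives lost.

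All 3 genes of the squalene and lanosterol steps rose with knockdown in both media and fell with cytokines in shRNA-NC cells. Among all tested genes 25.3% and 23.5% were called higher with knockdown in medium and in cytokines. With cytokines in shRNA-NC cells 15.2% were called lower. *Sqle*, squalene epoxidase and a slow step of the pathway (gene 20775, chromosome 15, 59186941 to 59203042, plus strand), was at 54.4, 54.9 and 65.9 FPKM in shRNA-NC and 83.0, 81.4 and 88.7 in shRNA-*Ddx5* cells in medium. With cytokines it was at 43.6, 37.6 and 41.1, and at 78.8, 78.1 and 75.7. The 2 lines did not overlap in either medium. The knockdown differences were 0.53 (adjusted p = 6.1e-04) and 0.91 (adjusted p = 1.4e-05), and the cytokine difference in shRNA-NC cells was -0.50 (adjusted p = 0.00129).

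*Lss*, which closes the ring of lanosterol, was at 9.53 ± 1.22 and 14.8 ± 0.101 FPKM in medium and at 7.15 ± 1.27 and 16.2 ± 0.763 with cytokines (SD, n = 3). The knockdown differences were 0.59 and 1.09 (adjusted p = 0.00146 and 2.3e-05). *Fdft1*, squalene synthase, was at 4.40 ± 0.434 and 8.23 ± 0.510 in medium and at 3.34 ± 0.317 and 7.72 ± 0.176 with cytokines, with differences of 0.78 and 1.01 (adjusted p = 3.6e-05 and 6.0e-06). It shares ground with *Ctsb* on the other strand, which reached 60.5 FPKM, and the sources used here do not say whether counting used strand, so its level is uncertain. The cytokine falls of *Lss* (-0.37, adjusted p = 0.0249) and *Fdft1* (-0.31, adjusted p = 0.0153) were lost in 6 and 4 of 23 alternatives, with adjusted p from 0.00454 to 0.0993 and from 0.00602 to 0.0696.

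Among the 8 genes from lanosterol to cholesterol, 5 were higher and 1 lower with knockdown in medium, and 6 were higher with knockdown in cytokines. This was 75.0% called in both, against 47.0% and 45.6% of all tested genes. *Dhcr7*, the reductase of the last step of one branch (gene 13360, chromosome 7, 143376825 to 143402147, plus strand), was at 5.14, 5.20 and 6.05 FPKM in shRNA-NC and 8.88, 9.42 and 10.2 in shRNA-*Ddx5* cells in medium. With cytokines it was at 3.45, 3.53 and 3.63, and at 7.94, 8.31 and 7.59. The 4 groups did not overlap. The knockdown differences were 0.70 (adjusted p = 4.6e-05) and 0.98 (adjusted p = 4.8e-06), and cytokines lowered it in shRNA-NC cells (-0.51, adjusted p = 6.5e-04).

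*Nsdhl*, a sterol dehydrogenase (gene 18194, chromosome X, 71962127 to 72002134, plus strand), was at 17.8, 19.1 and 18.5 FPKM in shRNA-NC and 26.9, 26.9 and 26.7 in shRNA-*Ddx5* cells in medium. It was at 15.4, 14.3 and 12.4, and at 25.5, 24.9 and 26.4, with cytokines. Control and knockdown libraries were again separate. The knockdown differences were 0.52 and 0.83 (adjusted p = 3.5e-04 and 1.4e-05). *Ebp*, a sterol isomerase, had similar differences of 0.60 and 0.54 (adjusted p = 0.00189 and 0.00363), and its level did not pass the test for cytokines in either line (-0.02 and -0.08).

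*Tm7sf2*, a sterol reductase, was the lowest of the 28 genes. Its FPKM was 0.913 ± 0.0759 and 1.84 ± 0.371 in medium and 0.795 ± 0.0687 and 1.97 ± 0.448 with cytokines (SD, n = 3). The differences of 0.56 and 0.72 (adjusted p = 0.00418 and 9.4e-04) understate the change at this level, since 1 is added to each value. Every shRNA-NC library was below 1 FPKM and every shRNA-*Ddx5* library above it. The gene thus passed the limit on low values only through the knockdown libraries, and its 2 calls are not independent of that limit. Both are among the 12 and 22 higher genes above. With at least 1 FPKM required in all 12 libraries, 27 genes were tested and 11 were higher in medium. It also overlaps *Vps51*, at up to 20.2 FPKM, on the same strand. *Hsd17b7*, a ketoreductase, was at 7.32 ± 0.393 and 8.91 ± 0.923 in medium and at 7.89 ± 0.812 and 10.9 ± 0.428 with cytokines. Its difference of 0.42 with cytokines had an adjusted p of 0.00318, and that of 0.25 in medium (adjusted p = 0.0436) was lost in 12 of 23 alternatives, with adjusted p from 0.00189 to 0.17. *Msmo1*, a sterol methyl oxidase, was called with cytokines (0.52, adjusted p = 0.0152) and not in medium (0.18). The first call was lost after quantile normalization (adjusted p = 0.0796) and without shRNA-NC replicate 3 with cytokines (adjusted p = 0.0626), and in medium the gene passed without the 3 libraries (0.43, adjusted p = 8.5e-04). *Sc5d*, a sterol desaturase, was not called in either (0.24 and 0.21), and passed in both with the GC trend removed (adjusted p = 0.00775 and 0.00983).

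*Cyp51*, the lanosterol demethylase (gene 13121, chromosome 5, 4130674 to 4154697, minus strand), was the other gene that fell with knockdown in medium. It was at 106, 108 and 139 FPKM in shRNA-NC and at 81.7, 81.2 and 88.7 in shRNA-*Ddx5* cells, without overlap. The difference was -0.48 (standard error 0.11, adjusted p = 0.00553). With cytokines it was at 109, 87.2 and 90.4, and at 82.9, 85.8 and 81.4. These groups did not overlap either, but the difference of -0.19 was not called (adjusted p = 0.206).

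**Figure D4:**
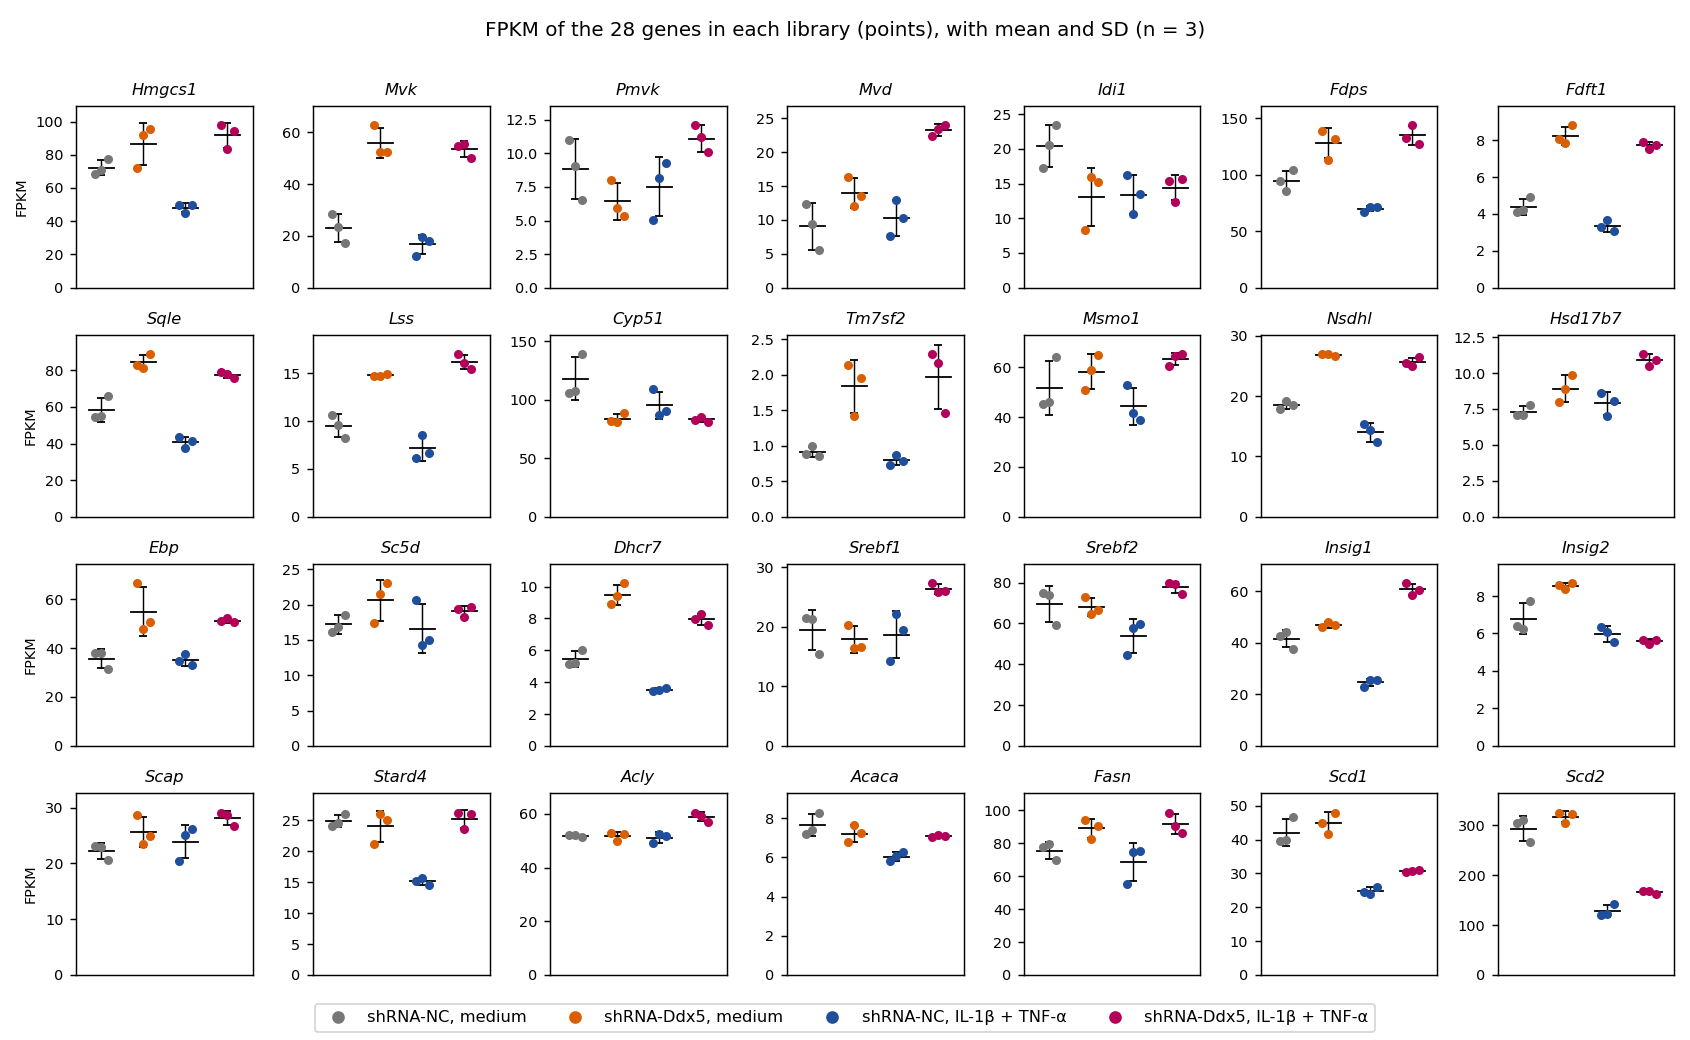
FPKM of each of the 28 genes in the 12 libraries, 1 panel per gene with its own axis from 0, points for libraries and lines with bars for the mean and SD of 3. *Mvk*, *Sqle*, *Nsdhl* and *Dhcr7* show the knockdown libraries above the controls in both media, and *Cyp51* shows them below.

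Of the 5 SREBP regulators, 1 was higher with knockdown in medium and 3 were higher with knockdown in cytokines. No regulator was called lower in either. Among all tested genes 47.0% and 45.6% were called, so the share of regulators called was below the background in medium and above it with cytokines. *Insig1*, an SREBP target that retains SREBP and so closes a feedback loop (gene 231070, chromosome 5, 28276410 to 28283660, plus strand), had the largest interaction of the 28 genes. It was at 42.8, 44.2 and 37.7 FPKM in shRNA-NC cells in medium and at 22.9, 25.4 and 25.4 with cytokines. In shRNA-*Ddx5* cells it was at 46.0, 48.0 and 46.7 in medium and at 63.0, 58.6 and 60.5 with cytokines. Cytokines thus lowered it in one line (-0.73, adjusted p = 3.5e-05) and raised it in the other (0.37, adjusted p = 0.00461). The interaction was 1.10 (standard error 0.11, adjusted p = 2.3e-04).

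*Insig2*, its relative, followed another course. It was at 6.79 ± 0.816 and 8.55 ± 0.142 FPKM in medium and at 5.99 ± 0.427 and 5.58 ± 0.130 with cytokines (SD, n = 3). It was higher with knockdown in medium (0.30, adjusted p = 0.0133) and fell with cytokines in shRNA-*Ddx5* cells (-0.54, adjusted p = 6.5e-04). The call in medium was lost in 3 of 23 alternatives, with adjusted p from 0.00186 to 0.0602. *Srebf2*, the SREBP gene most tied to cholesterol, was at 69.3 ± 8.82 and 68.0 ± 4.33 in medium, where it was not called (-0.02, 95% interval -0.29 to 0.25), but was lower without the 3 libraries (-0.18, adjusted p = 0.0223). With cytokines it was at 53.9 ± 8.36 and 77.7 ± 2.80, a difference of 0.53 (adjusted p = 0.00442). Its fall with cytokines in shRNA-NC cells (-0.36, adjusted p = 0.0416) came with overlapping groups and was lost in 10 of 23 alternatives, with adjusted p from 3.2e-04 to 0.132.

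*Srebf1*, the SREBP gene most tied to fatty acids, was at 18.7 ± 4.01 and 26.4 ± 0.808 FPKM with cytokines, a knockdown difference of 0.50 (adjusted p = 0.0236). In medium the difference was -0.11 (adjusted p = 0.613), and -0.35 (adjusted p = 0.00301) without the 3 libraries. The call with cytokines was lost in 6 of 23 alternatives, with adjusted p from 8.1e-04 to 0.0869. *Srebf1* overlaps *Rai1* on the other strand. *Scap*, the escort, was not called in any of the comparisons, and its knockdown differences were 0.19 in medium (95% interval -0.03 to 0.42) and 0.23 with cytokines (95% interval 0.01 to 0.46). With the GC trend removed both passed (0.16 and 0.17, adjusted p = 0.0212 and 0.0198), and without the 3 libraries neither did (0.06 and 0.13).

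*Stard4*, a cytosolic sterol carrier (gene 170459), was at 24.0, 24.6 and 25.9 FPKM in shRNA-NC cells in medium and at 15.1, 15.7 and 14.6 with cytokines. With knockdown it ran from 21.2 to 26.0 (24.0 ± 2.52, SD, n = 3) in medium and was at 26.2, 23.5 and 25.9 with cytokines. Only the shRNA-NC libraries with cytokines stood apart from the rest. The cytokine difference was -0.68 (adjusted p = 1.2e-04) in shRNA-NC and 0.07 (adjusted p = 0.592) in shRNA-*Ddx5* cells. The interaction was 0.75 (standard error 0.12, adjusted p = 0.00341).

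None of the 5 fatty acid synthesis genes was called with knockdown in medium by limma (0 of 5, against a background of 47.0%). At an unadjusted p under 0.05 it was also 0. With knockdown in cytokines all 5 were higher, against 23.5% of all tested genes. After quantile normalization 1 of these 5 calls, that of *Acaca*, was left, and 3 after rescaling to the sum. Leaving out shRNA-*Ddx5* replicate 1 or 2 with cytokines left 2 and 3. In medium *Fasn* was called higher with the GC trend removed, and *Acly* was called lower after quantile normalization. *Scd2*, a fatty acid desaturase (gene 20250, chromosome 19, 44282115 to 44295303, plus strand), had the largest cytokine difference of the 28 genes. It was at 304, 311 and 266 FPKM in shRNA-NC cells in medium and at 120, 123 and 143 with cytokines. The knockdown cells had 325, 304 and 322 in medium and 168, 169 and 162 with cytokines. Cytokines lowered it in both lines (-1.19 and -0.92, adjusted p = 3.0e-06 and 1.7e-05). *Scd1*, its neighbor and close relative, fell likewise (-0.73 and -0.53, adjusted p = 5.5e-05 and 5.7e-04). Reads shared between the 2 relatives could be split by the counting. The interaction was not called for either (0.27 and 0.21).

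*Fasn*, fatty acid synthase (gene 14104, chromosome 11, 120696784 to 120715992, minus strand), was at 55.1, 74.4 and 75.5 FPKM in shRNA-NC and at 98.5, 90.6 and 86.4 in shRNA-*Ddx5* cells with cytokines. The lowest value was from shRNA-NC replicate 1, 1 of the 3 libraries apart. The difference was 0.43 (adjusted p = 0.0118), and 0.29 (adjusted p = 0.00689) without the 3 libraries. The call was lost after quantile normalization (0.25, adjusted p = 0.117) and without shRNA-*Ddx5* replicate 1 with cytokines (0.38, adjusted p = 0.0509). *Acly*, which makes cytosolic acetyl-CoA, was at 51.9 ± 0.471, 51.7 ± 1.62 and 51.2 ± 1.93 in the other groups and at 59.0 ± 1.70 in shRNA-*Ddx5* cells with cytokines (SD, n = 3). Its knockdown difference with cytokines was 0.20 (adjusted p = 0.0211), and 0.05 (adjusted p = 0.525) after quantile normalization. *Acaca*, acetyl-CoA carboxylase, was at 6.04 ± 0.228 and 7.09 ± 0.0339 with cytokines. This difference of 0.20 (adjusted p = 0.0452) was lost in 13 of 23 alternatives, with adjusted p from 0.0233 to 0.149. *Acaca* overlaps *Tada2a* on the other strand.

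**Figure D5:**
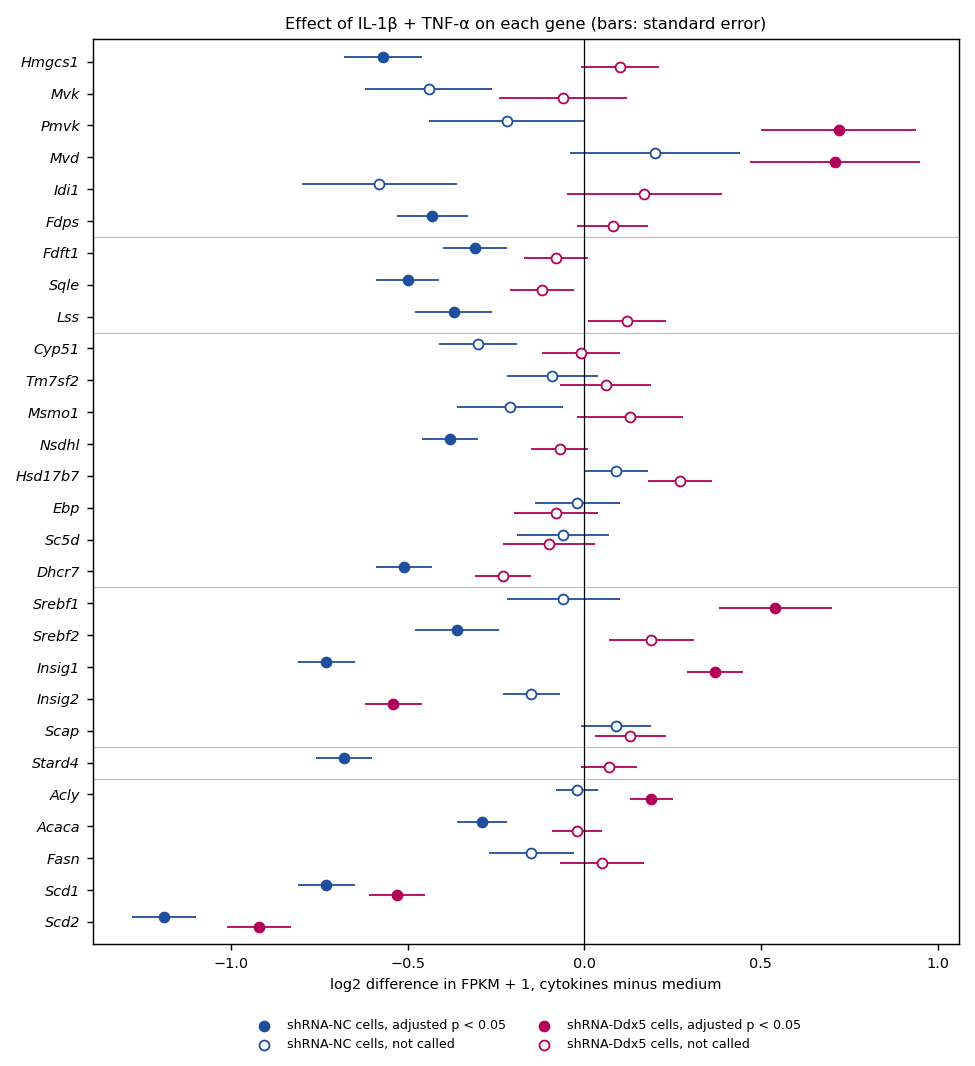
Log2 difference in FPKM + 1 between cytokines and medium for each of the 28 genes, in shRNA-NC and in shRNA-*Ddx5* cells, with standard errors as bars and filled points for adjusted p under 0.05. In shRNA-NC cells 13 points are filled, all to the left of 0, and in shRNA-*Ddx5* cells 5 to the right and 3 to the left.

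Other genes near these pathways were counted as lists, beside a background of 47.0% called with knockdown in medium, 45.6% with knockdown in cytokines and 33.8% with cytokines in shRNA-NC cells. Of 12 tested genes of isoprenoid and side branches, 5 were higher and 1 lower with knockdown in medium, 5 and 2 with knockdown in cytokines, and 2 and 3 with cytokines in shRNA-NC cells. The shares called were 50.0%, 58.3% and 41.7%, close to or somewhat above that background. *Acat2*, which makes the acetoacetyl-CoA used by Hmgcs1, was at 45.0, 43.9 and 49.4 FPKM in shRNA-NC and 68.3, 63.9 and 72.0 in shRNA-*Ddx5* cells in medium. With cytokines it was at 24.8, 30.7 and 27.7, and at 75.5, 77.4 and 71.3. Its interaction was 0.85 (adjusted p = 0.00213). Of 11 tested genes of SREBP processing and sterol-linked degradation, 3 were higher and 1 lower with knockdown in medium, and 2 and 1 with knockdown in cytokines. *Tmem97*, a sterol-responsive membrane protein, was higher in both (0.98 and 1.26, adjusted p = 1.4e-05 and 2.6e-06). Of 10 tested genes of sterol efflux, storage and LXR, the sterol-sensing receptor, 5 were higher and 2 lower with knockdown in medium and 5 and 1 with knockdown in cytokines.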

How the data were processed

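RNA from 12 libraries of ATDC5 cells, 3 in each of 4 groups, was analysed. The authors selected poly-A RNA, used featureCounts for fragment counts per gene, from which they made the deposited FPKM. The submitters' processing notes name HISAT2 2.0.5, featureCounts 1.5.0-p3, DESeq2 1.20.0 and mm10, but the coordinates in the table are those of GRCm39. Strand use in counting was not given in the sources used here. Fragments were recovered from FPKM times gene length, which moves in equal steps within a library. Intervals are those of limma for a difference between group means. They are computed from the spread between libraries and do not give the range of library values. Groups came from the labels, and the doses from the study's methods. Values were log2(FPKM + 1), which understates changes of low genes. The 12368 genes that reached an FPKM of 1 in 3 or more libraries were fitted with limma 3.58.1 in R 4.3.3 with 4 group means over all 12 libraries and Benjamini-Hochberg adjustment over all tested genes, at a threshold of 0.05. The model was tested on simulated data. The genes, the lists and the rule to name all 28 and at most 3 of each other list per comparison were chosen with earlier results of these data known. Alternatives were another pseudocount (0.1), other filters, quantile normalization, rescaling, voom on fragments, a replicate block, only the libraries compared and each library left out. Removing the GC trend, alone or with the block, and leaving out 3 libraries were chosen after seeing the data. Transcript GC content was found for 94% of tested genes and all 28. Figures used matplotlib 3.10.9.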

Additional observations from a re-analysis of the deposited data

Results flagged for a closer look

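The knockdown effect differed between the media for 4 of the 28 genes by the interaction term of limma with Benjamini-Hochberg adjustment. For *Insig1* the effect was larger with cytokines by 1.10 log2 units (adjusted p = 2.3e-04), from 0.17 in medium to 1.27. For *Stard4* it was larger by 0.75 (adjusted p = 0.00341), from -0.05 to 0.70. These calls held in each of the 22 alternatives. For *Hmgcs1* it was larger by 0.67 (adjusted p = 0.0251), from 0.24 to 0.91, and 3 of 22 alternatives lost the call, with adjusted p from 0.00232 to 0.0719. Those 3 left out shRNA-NC replicate 2 in medium and shRNA-*Ddx5* replicates 1 and 3 with cytokines. For *Fdps* it was larger by 0.50 (adjusted p = 0.0492), from 0.43 to 0.93, and 14 of 22 alternatives lost the call, with adjusted p from 0.0092 to 0.122. Groups of 3 libraries were not tested for single outlying values.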

How the results depend on the processing

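Of 61 calls on single genes over the 5 comparisons, 39 held in every alternative run, and no call changed direction. Those that held were 9 of 14 for knockdown in medium, 15 of 22 for knockdown with cytokines, 9 of 13 for cytokines in shRNA-NC cells, 4 of 8 in shRNA-*Ddx5* cells and 2 of 4 for the interaction. The genes lower with knockdown in medium numbered 2, and 1 with no filter, 1 with only the libraries compared and 4 without the 3 libraries apart in GC trend. With cytokines 1 was lower after quantile normalization. The genes higher with cytokines in shRNA-*Ddx5* cells numbered 5, and 2 with no filter, 2 after quantile normalization and 3 after rescaling to the sum, and the 3 lower became 5 without the 3 libraries. The 4 interactions became 11 with the GC trend removed, 11 with the replicate block and the GC trend removed and 12 without the 3 libraries, and the opposite direction had 1 with the GC trend removed and 1 without the 3 libraries. The cause was not tested.

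Leaving out each library in turn gave 9 to 13 higher and 1 to 2 lower for knockdown in medium, where leaving out shRNA-NC replicate 2 or shRNA-*Ddx5* replicate 1 in medium gave the 1. It gave 18 to 23 higher for knockdown with cytokines, 11 to 14 lower for cytokines in shRNA-NC cells, 1 to 6 higher and 3 to 4 lower in shRNA-*Ddx5* cells, and 2 to 7 and 0 to 1 for the interaction. In shRNA-*Ddx5* cells the higher count was 3 without shRNA-NC replicate 2 in medium or replicate 3 with cytokines. It was 2 without shRNA-*Ddx5* replicate 3 in medium, which includes a gene not called with all libraries. The log2 difference of *Ddx5* stayed within -1.73 to -1.54 (medium) and -1.66 to -1.59 (cytokines).

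The labels link libraries only by a replicate number. Same-numbered libraries had a mean correlation of deviations of -0.0450 (-0.394 to 0.448), and the block was not used. For knockdown in medium the 3 pairs ran from 0.0425 to 0.448, while the ranges of the other comparisons included negative values. The GC trend was not removed from these deviations, so they cannot exclude a pairing. With the replicate block, knockdown gave 10 higher and 2 lower of the 28 genes in medium and 21 higher with cytokines. Among the 12368 tested genes it gave 2927 higher and 2525 lower in medium, and 2692 and 2540 with cytokines. In medium the share of the 28 genes called was thus close to the background. Cytokines gave 12 lower in shRNA-NC cells, against 1682 of all tested genes. In shRNA-*Ddx5* cells they gave 3 higher and 3 lower, against 1488 and 1414. The interaction passed for 3, against 293 of all tested genes in this direction and 394 in the other. *Tm7sf2* had the fewest fragments, 18 in 1 library, and small differences in it were not detectable at this depth.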

Other observations

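Genes that use fatty acids were not described above. Of 20 tested genes of fatty acid activation, elongation and desaturation, 7 were higher and 3 lower with knockdown in medium, and 8 and 6 with knockdown in cytokines. With cytokines 8 were higher and 5 lower in shRNA-NC cells, and 6 and 6 in shRNA-*Ddx5* cells. The shares called were 50.0%, 70.0%, 65.0% and 60.0%, against 47.0%, 45.6%, 33.8% and 27.0% of all tested genes, so that the first was close to the background. *Acsl1*, which activates long-chain fatty acids, was at 5.66, 7.60 and 5.84 FPKM in shRNA-NC and at 38.0, 36.3 and 37.8 in the knockdown libraries with cytokines. The log2 difference was 2.39 (adjusted p = 6.9e-08 by limma). In medium it was at 3.72, 3.77 and 3.28, and at 6.22, 6.45 and 6.94. The interaction was 1.68 (adjusted p = 7.9e-05). *Elovl5*, an elongase of polyunsaturated fatty acids, was lower with knockdown in both media (-1.33 and -1.50, adjusted p = 6.4e-06 and 2.7e-06).

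Of 12 tested genes of fatty acid oxidation, 1 was higher and 3 lower with knockdown in medium, and 5 and 1 with knockdown in cytokines. With cytokines 6 were lower in shRNA-NC cells, and 1 was higher and 4 lower in shRNA-*Ddx5* cells. The shares called were 33.3%, 50.0%, 50.0% and 41.7%, against the same 47.0%, 45.6%, 33.8% and 27.0%. *Acadm*, which oxidizes medium-chain fatty acids, fell with cytokines in both lines (-0.88 and -0.63, adjusted p = 7.5e-05 and 7.9e-04). *Cpt1a*, which admits fatty acids to mitochondria, was lower with knockdown in both media (-0.52 and -0.50, adjusted p = 3.4e-04 and 4.7e-04).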
